A study of Mus musculus with 9 samples.

Results

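The guanylate-binding proteins (GBPs) were followed across cDC1 of mouse lymph nodes beside the pancreas, as the 8 genes Gbp2, Gbp3, Gbp4, Gbp5, Gbp6, Gbp7, Gbp8 and Gbp9. The genes were taken by name, with the deposited transcripts summed to genes, out of 53458 genes in all. All 8 passed the filter on low counts, among 24133 genes tested. cDC1, conventional type 1 dendritic cells, take up dead cells and show their antigens to CD8 T cells. The 9 bulk RNA libraries came from nodes of 3 kinds, with 3 libraries each: Healthy, PanIN (draining a pancreas with intraepithelial neoplasia, a precursor of cancer) and Tumor (draining a tumor). KPC, a genetically engineered mouse model of pancreatic cancer, stands in the series title. Which animals of each stage carried its alleles, the age of the animals, the markers used to sort the cells and whether a library held 1 animal or a pool were not stated in the labels. The spread behind the p-values is that between these libraries and may be technical.

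GBPs are large GTPases that interferons, above all interferon gamma, switch on, in part through the transcription factor IRF1. They assemble on membranes that surround intracellular bacteria and parasites, together with the immunity-related GTPases and parts of the autophagy machinery, and in the cytosol they help inflammasomes to form. Some members, Gbp2 and Gbp5 among them, end in a motif to which a lipid is attached, which anchors them to membranes. In the mouse the genes lie in a cluster on chromosome 3 and another on chromosome 5.

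Promoters are shown first because interferon-driven factors bind there and because members of a single cluster differed in how they varied between libraries. RefSeq promoters (GRCm38.p6, 250 bases before the annotated start) were matched by symbol for 4 of the 8 members, all on the plus strand of chromosome 3. In capitals are matches to an ISRE-like motif, GAAANNGAAA or its reverse complement TTTCNNTTTC, and to a GAS-like motif, TTCNNNGAA, which is its own reverse complement. ISRE and GAS are response elements of interferon-driven transcription factors.
Gbp2 promoter, chr3:142620413-142620662: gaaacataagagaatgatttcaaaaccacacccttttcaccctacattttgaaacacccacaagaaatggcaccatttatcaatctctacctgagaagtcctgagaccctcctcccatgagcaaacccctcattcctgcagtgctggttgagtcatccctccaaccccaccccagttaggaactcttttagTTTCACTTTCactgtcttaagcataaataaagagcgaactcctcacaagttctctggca
Gbp5 promoter, chr3:142496684-142496933: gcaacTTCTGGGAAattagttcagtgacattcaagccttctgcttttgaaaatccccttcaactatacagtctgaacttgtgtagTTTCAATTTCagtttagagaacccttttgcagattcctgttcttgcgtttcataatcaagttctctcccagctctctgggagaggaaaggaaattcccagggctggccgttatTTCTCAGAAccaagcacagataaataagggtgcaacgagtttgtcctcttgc
Gbp7 promoter, chr3:142530086-142530335: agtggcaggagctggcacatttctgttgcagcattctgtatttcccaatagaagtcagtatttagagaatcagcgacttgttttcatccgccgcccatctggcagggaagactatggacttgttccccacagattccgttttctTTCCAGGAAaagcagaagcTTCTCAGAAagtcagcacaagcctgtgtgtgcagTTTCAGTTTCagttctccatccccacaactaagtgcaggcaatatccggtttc
Gbp3 promoter, chr3:142559794-142560043: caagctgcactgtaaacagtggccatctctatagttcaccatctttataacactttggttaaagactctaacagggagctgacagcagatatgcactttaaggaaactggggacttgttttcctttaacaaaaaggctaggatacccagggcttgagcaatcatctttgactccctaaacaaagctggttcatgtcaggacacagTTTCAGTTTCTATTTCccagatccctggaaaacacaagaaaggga

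All 4 windows held an ISRE-like match, a motif present in 2.98% of the 32851 promoters of that length. It began 59 bases before the start in Gbp2, 165 in Gbp5, 53 in Gbp7, and 45 and 39 in Gbp3, where the 2 matches overlap. GAS-like matches, present in 7.02% of promoters, were found in Gbp5 (from 245 and 52 bases before the start) and Gbp7 (from 106 and 87), but not in the windows of Gbp2 and Gbp3. Gbp5 and Gbp7 thus carried both motifs, as did 0.332% of promoters. Gbp3 has another RefSeq start with a window that held neither motif. The RefSeq and GENCODE starts differ: the whole Gbp5 window, the end of the Gbp3 window and the end of the Gbp2 window with its ISRE-like match lie inside the GENCODE genes. These matches are letters in a window and were not tied to any measured binding.

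By the GENCODE M21 annotation of GRCm38, Gbp2 (ENSMUSG00000028270, chr3:142620602-142638008), Gbp3 (ENSMUSG00000028268, chr3:142560026-142573209), Gbp5 (ENSMUSG00000105504, chr3:142493978-142522344) and Gbp7 (ENSMUSG00000040253, chr3:142530342-142550149) lie on the plus strand of chromosome 3. Gbp4 (ENSMUSG00000079363, chr5:105115767-105139586), Gbp6 (ENSMUSG00000104713, chr5:105270702-105293698), Gbp8 (ENSMUSG00000034438, chr5:105014150-105139540) and Gbp9 (ENSMUSG00000029298, chr5:105077630-105139539) lie on the minus strand of chromosome 5. All 8 are annotated as protein-coding. The annotated spans of Gbp8, Gbp9 and Gbp4 overlap on the same strand: Gbp8-201 and Gbp9-202, a transcript of each, begin beside the start of Gbp4.

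How much sequence the genes share bears on how far their counts can be told apart. Transcripts were compared by 31-base words, that is, every run of 31 bases they contain. Of the words of Gbp5, 0.0299% occurred in another Gbp gene, and the shares for the other chromosome 3 members were 4.85% in Gbp2, 5.64% in Gbp3 and 3.69% in Gbp7. The chromosome 5 members shared more with other Gbp genes: 13.5% in Gbp4, 18.3% in Gbp9, 31.1% in Gbp8 and 57.6% in Gbp6. Sharing with genes other than the Gbp genes did not divide the clusters in this way. It was 11.1% in Gbp7, 3.02% in Gbp5, and 0% in Gbp2 and Gbp3, beside 7.55% in Gbp4, 8.41% in Gbp9 and 10% in Gbp8. Words in no other gene made up 85.3% in Gbp7 and 85.7% in Gbp4. Among the Gbp genes the closest to Gbp6 was Gbp10, which held 51.4% of its words. Genes other than the 11 annotated Gbp genes held 68.1% of the words of Gbp6, and 25.8% were in no other gene. Values of Gbp6 are therefore uncertain, and those of Gbp8 less so, with 68.9% of its words in no other gene.

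**Figure D1:**
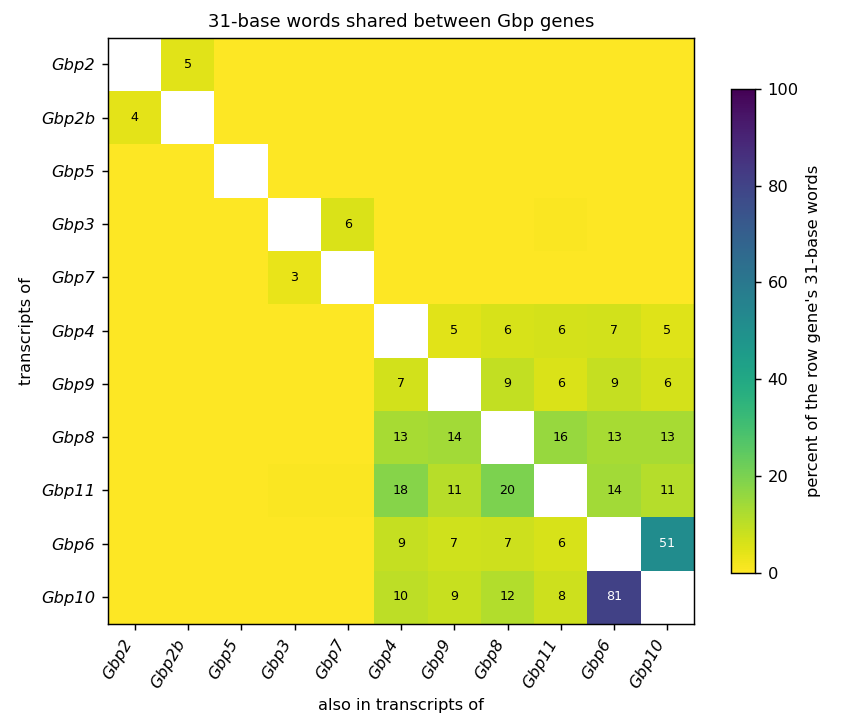
Heat map of the percent of the 31-base words in the transcripts of each of 11 annotated Gbp genes (rows) that also occur in transcripts of another (columns); values of 3 and above are printed and the diagonal is blank. Sharing is concentrated among the chromosome 5 genes in the lower right, above all between Gbp6 and Gbp10.

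Levels between genes were compared in TPM, a unit that allows for transcript length. Gbp9 averaged 23.1 ± 10.3 TPM over the 9 libraries (SD), Gbp2 22 ± 8.14, Gbp8 19.5 ± 12.5, Gbp5 14.7 ± 6.24 and Gbp4 10.1 ± 4.52. Far below came Gbp3 with 2.84 ± 0.83 TPM, Gbp6 with 0.891 ± 0.467 and Gbp7 with 0.612 ± 0.351. Neighbours at the top of this order were not separated: Gbp9 exceeded Gbp2 in 4 of 9 libraries, Gbp2 exceeded Gbp8 in 6, and Gbp8 exceeded Gbp5 in 6. Gbp5 exceeded Gbp4 in 8 of 9 libraries and Gbp6 exceeded Gbp7 in 8. Gbp4 exceeded Gbp3, and Gbp3 exceeded Gbp6, in 9 of 9. As a share of the summed TPM of the 8 genes, Gbp5 varied little, between 13.8% and 17% per library. Gbp9 ranged from 13% to 37.3% and Gbp8 from 9.16% to 29.1%. These TPM depend on how reads were divided among transcripts. Gbp8-204, annotated as non-coding, made up 73% of the mean TPM of Gbp8. Gbp9-204, also annotated as non-coding and 555 bases long, made up 35.3% of that of Gbp9. All TPM of Gbp2 were in a coding transcript, and 89% of those of Gbp5 were in coding Gbp5-201.

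Between libraries, levels were compared in CPM, counts scaled to library size with TMM factors. Summed over the 8 genes, the family stood at 385, 162 and 215 CPM in Healthy nodes, 517, 389 and 289 in PanIN nodes and 475, 302 and 542 in Tumor nodes. The means were 254 ± 116, 399 ± 114 and 440 ± 124 CPM (SD, n = 3 each), and the 3 groups overlapped. The means of both clusters had the same order: the chromosome 3 members summed to 115 ± 37.6 CPM in Healthy nodes, 171 ± 50.1 in PanIN nodes and 201 ± 52.9 in Tumor nodes. The chromosome 5 members summed to 139 ± 79.4, 228 ± 64.3 and 239 ± 71.8 CPM in the same order of stages. Measured in TPM the family sum was 60.8 ± 29.1 in Healthy nodes, 115 ± 26.7 in PanIN nodes and 106 ± 37.7 in Tumor nodes, so the order of the means of PanIN and Tumor turned round with the unit.

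Gbp2, whose protein coats the vacuoles of Toxoplasma in mouse cells, stood at 78.1, 39.8 and 58.1 CPM in Healthy nodes, 108, 70.4 and 53.6 in PanIN nodes and 125, 72 and 115 in Tumor nodes. Only Healthy 1, of the Healthy libraries, was above the lowest Tumor library. Gbp5, known in the mouse for promoting the NLRP3 inflammasome, stood at 60.1, 29.9 and 38.8 CPM in Healthy nodes, 95, 73.7 and 57.1 in PanIN nodes and 80.9, 58.6 and 108 in Tumor nodes. Again Healthy 1 alone reached into the range of the other stages, above PanIN 3 and Tumor 2. Gbp3 stood at 9.68, 8.63 and 8.94 CPM in Healthy nodes, 13.8, 12.3 and 8.36 in PanIN nodes and 14.5, 7.44 and 13.1 in Tumor nodes. The Healthy libraries were close together for Gbp3, and PanIN 3 and Tumor 2 lay below all of them.

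Gbp7, linked in mouse macrophages to assembly of the phagocyte oxidase, stood at 7.67, 3.02 and 2.89 CPM in Healthy nodes, 7.21, 7.02 and 5.8 in PanIN nodes and 4.01, 2.3 and 1.78 in Tumor nodes. Every PanIN library was above every Tumor library, while Healthy 1 was the highest of all 9 and the other Healthy libraries lay within the Tumor range.

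On chromosome 5, Gbp8 had the widest range of the abundant members. It stood at 45.5, 10.8 and 19.9 CPM in Healthy nodes, 83.8, 32.5 and 39.1 in PanIN nodes and 92.8, 41.6 and 105 in Tumor nodes. Healthy 2 and Healthy 3 were below all 6 other-stage libraries, and Healthy 1 was above Tumor 2 and 2 PanIN libraries. Gbp4 stood at 66.8, 11.5 and 33.5 CPM in Healthy nodes, 80.8, 55.1 and 42.4 in PanIN nodes and 73.7, 48.8 and 83.5 in Tumor nodes, with Healthy 2 and Healthy 3 the lowest of the 9. Gbp9 stood at 110, 54.3 and 49.2 CPM in Healthy nodes, 121, 131 and 80.5 in PanIN nodes and 78.3, 69.5 and 113 in Tumor nodes. Its means were 71.1 ± 33.7 CPM in Healthy nodes, 111 ± 26.8 in PanIN nodes, the highest of the 3 stages, and 86.8 ± 22.8 in Tumor nodes, and the groups overlapped. Gbp6 stood at 6.71, 4.15 and 3.39 CPM in Healthy nodes, 7.45, 7.12 and 2.42 in PanIN nodes and 6.57, 1.97 and 2.59 in Tumor nodes, with no separation of stages.

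**Figure D2:**
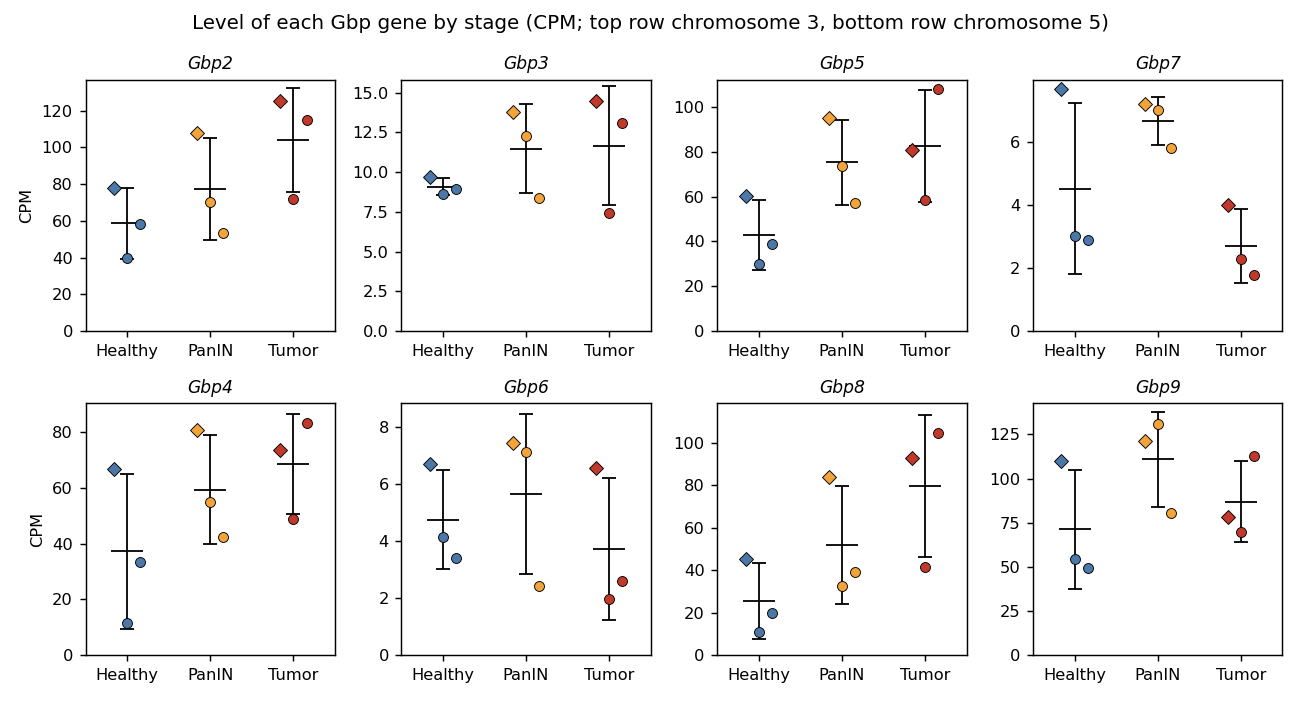
Level of each gene in CPM (vertical axes, from 0) in the 9 libraries by stage; horizontal bars are means and whiskers SDs of 3 libraries, and diamonds mark the 3 libraries whose titles share a code. Healthy 1, the Healthy diamond, is the highest Healthy library in all 8 genes, and only Gbp7 shows 2 stages apart, PanIN above Tumor.

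Healthy 1 was the highest Healthy library for all 8 genes. The 3 libraries named 1 share a title code, 1 per stage, whose meaning is not given. Depth ran from 32150281 to 68934430 estimated counts per library. The 12 cDC1 markers (Xcr1, Clec9a, Batf3 and others) summed to 4115 to 13772 CPM over the 9 libraries, with none at 0 throughout. Both ends of that range were Healthy libraries, 4115 in Healthy 3 and 13772 in Healthy 2. PanIN nodes had 5665 to 9906 CPM and Tumor nodes 5071 to 7918. Of 10 dendritic cell maturation genes (Ccr7, Fscn1, Cd40 and others) none was at 0 throughout either, and they summed to 951 to 6778 CPM in Healthy nodes, 3268 to 7716 in PanIN nodes and 7018 to 13250 in Tumor nodes. The lowest, 951 CPM, was Healthy 2, and among the Healthy libraries Healthy 1 was highest with 6778. Markers of other cells were present: 10 B cell genes summed to 188 to 465 CPM in Healthy nodes, 254 to 767 in PanIN nodes and 240 to 307 in Tumor nodes. Another 12 genes of T and NK cells summed to 40.9 to 211 CPM in Healthy nodes, 46.4 to 207 in PanIN nodes and 37.5 to 312 in Tumor nodes, and in each stage the library with the shared title code was the highest. The 10 neutrophil genes, 1 of them at 0 in all libraries, summed to 2.68 to 5.06 CPM in Healthy nodes, 4.27 to 40.3 in PanIN nodes and 3.54 to 7.35 in Tumor nodes. The part of maturation state and of other cells in the GBP levels was not tested, and in bulk RNA fewer cells of a type cannot be told apart from less RNA per cell.

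PanIN was compared with Healthy to ask how cDC1 of nodes draining precursor lesions differed. The log2 fold change was positive in all 8 genes and its median was 0.60, beside a median of -0.10 and 42.5% positive over all 24133 genes. None passed the test: by the edgeR quasi-likelihood test, with p adjusted by Benjamini-Hochberg, 0 of 8 were called, and 0 (0%) of all genes. At an unadjusted p under 0.05 only Gbp5 was higher, 1 of 8, where 10.5% of all genes passed in either direction (4.82% higher and 5.65% lower). Gbp5 averaged 75.2 ± 19 CPM in PanIN and 42.9 ± 15.6 in Healthy (SD, n = 3 each); the fitted log2 fold change was 0.81 (SE 0.31, adjusted p = 0.457 by edgeR). Gbp8 averaged 51.8 ± 27.9 CPM in PanIN and 25.4 ± 18 in Healthy (SD); the fitted log2 fold change was 1.03 (SE 0.52, adjusted p = 0.511). The other 6 lay between 0.26 (Gbp6, SE 0.56) and 0.67 (Gbp4, SE 0.48), with adjusted p from 0.523 to 0.929. In no gene did the PanIN and Healthy libraries lie apart, where 7.4% of all genes were apart with PanIN higher and 4.81% with PanIN lower.

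This comparison leaned on Healthy 2 and Healthy 3. Without Healthy 1 the members' median log2 fold change was 1.12, and without both Healthy 2 and Healthy 3 it was 0.00, in a fit that leaves 1 Healthy library, assumed to vary like the other groups. Within the shared title code, with 1 library a stage and no replicates, 7 of 8 differences were positive with a median of 0.37, and in the other 6 libraries 8 were positive with a median of 0.96.

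Tumor was compared with Healthy to ask how cDC1 of tumor-draining nodes differed. Here the members parted: 6 of 8 log2 fold changes were positive, and those of Gbp6 and Gbp7 were negative. The median was 0.59, beside -0.11 over all genes, of which 43.5% were positive. The edgeR test called 0 of 8, and 6 of all genes (0.0249%). At an unadjusted p under 0.05, 3 of 8 were higher, namely Gbp2, Gbp5 and Gbp8, and 0 lower, where 17.8% of all genes passed in either direction (6.82% higher and 11% lower).

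Gbp8 averaged 79.8 ± 33.6 CPM in Tumor and 25.4 ± 18 in Healthy (SD, n = 3 each); the fitted log2 fold change was 1.65 (SE 0.52, adjusted p = 0.168 by edgeR). Its call depended on the method: DESeq2 called it (log2 fold change 1.66, adjusted p = 0.0279), as did edgeR with no filter on low counts (1.64, adjusted p = 0.0233). Both settings also called far more of all genes than the main fit did, as counted in the last section. Gbp5 averaged 82.5 ± 24.7 CPM in Tumor and 42.9 ± 15.6 in Healthy (SD); the fitted log2 fold change was 0.94 (SE 0.31, adjusted p = 0.17). Gbp2 averaged 104 ± 28.2 CPM in Tumor and 58.6 ± 19.2 in Healthy (SD); the fitted log2 fold change was 0.83 (SE 0.33, adjusted p = 0.219). Gbp4 had 0.88 (SE 0.48), Gbp3 0.36 (SE 0.32) and Gbp9 0.29 (SE 0.33) on the log2 scale. On the negative side stood Gbp6 with -0.35 (SE 0.56) and Gbp7 with -0.74 (SE 0.48, adjusted p = 0.46). No member had Tumor and Healthy libraries apart, where 9.02% of all genes were apart with Tumor higher and 9.06% with Tumor lower.

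Without both Healthy 2 and Healthy 3 the median was 0.15, in a fit with 1 Healthy library; Gbp8 was then at 0.81 (adjusted p = 0.657) and Gbp9 at -0.34. Gbp8 was at 2.38 (adjusted p = 0.0976) without Healthy 1. Among the 3 libraries of the shared title code, which has no replicates, 5 of 8 differences were positive (median 0.29), and in the other 6 libraries 6 were (median 0.85). Gbp4 showed the widest gap between the 2 sets, 0.14 within the code and 1.70 outside it, and Gbp8 had 1.03 and 2.17.

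Tumor was compared with PanIN to set the later stage against the precursor. The members had a median log2 fold change of 0.08, with 5 of 8 positive, beside -0.05 and 45.8% over all genes. None of 8 was called, and 3 of all genes were (0.0124%). Gbp7 averaged 2.7 ± 1.17 CPM in Tumor and 6.68 ± 0.767 in PanIN (SD, n = 3 each); the fitted log2 fold change was -1.30 (SE 0.48, adjusted p = 1 by edgeR). It was the 1 member of 8 at an unadjusted p under 0.05, where 4.54% of all genes passed in either direction (2.02% higher and 2.52% lower). It was also the 1 member whose libraries lay apart, Tumor below PanIN, where 7.26% of all genes were apart in that direction and 8.33% in the other. The difference of Gbp7 was -0.84 within the shared title code and -1.63 among the other libraries. The other 7 lay between -0.61 (Gbp6) and 0.62 (Gbp8), all with adjusted p = 1, and the signs of Gbp3, Gbp4 and Gbp5 turned negative on the TPM scales. A single edgeR test of any difference among the 3 stages also called 0 of 8 and 5 of all genes (0.0207%), with Gbp5 lowest at an adjusted p of 0.314. With no filter on low counts that test called Gbp8 (adjusted p = 0.0413), and its calls over all genes were not counted in that setting.

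**Figure D3:**
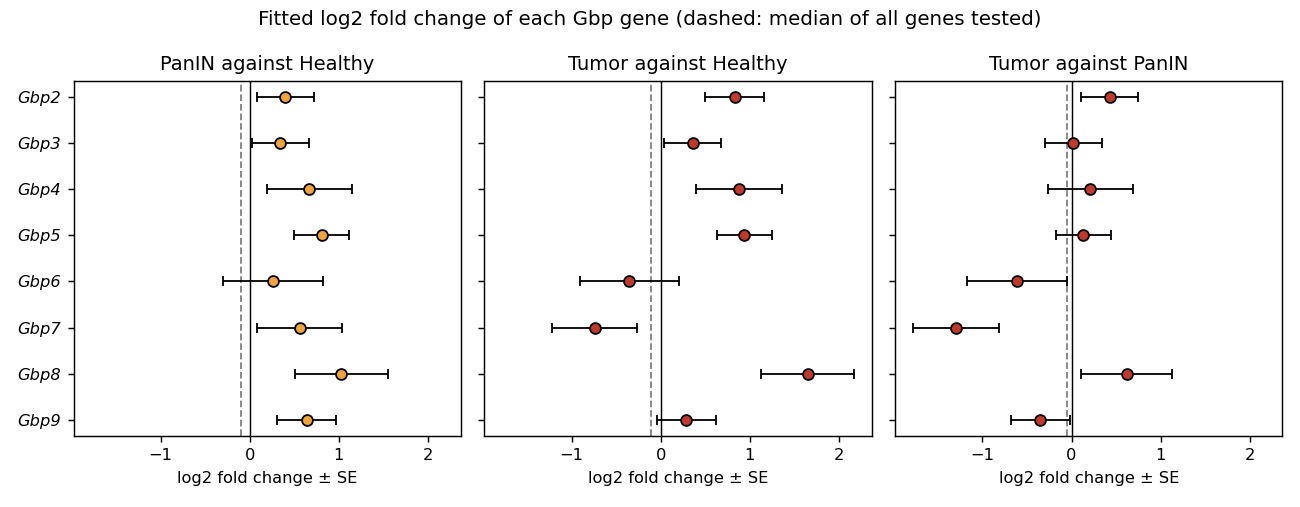
Log2 fold change with its SE (horizontal axes) of each gene by the edgeR fit, in the 3 comparisons; the dashed line is the median of all genes tested. Gbp8 lies farthest right in Tumor against Healthy at 1.65, and Gbp7 farthest left in Tumor against PanIN at -1.30; none passed the adjusted threshold.

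The annotation splits each gene into transcripts, and for Gbp8 most of the difference between the stage means lay in 1 of them. The following transcript values were chosen after they were seen and are given with no test. Gbp8-204, annotated as a processed transcript with no coding sequence, has 6 exons over the 3′ part of the gene (chr5:105014150-105022064, minus strand) and is 1902 bases long. It was estimated at 17.5, 5.46 and 11.9 CPM in Healthy nodes, 53.8, 20.4 and 18.3 in PanIN nodes and 67.7, 34.5 and 80.2 in Tumor nodes. Every Tumor library was above every Healthy library, and so was every PanIN library. The PanIN margin was narrow, with 18.3 CPM in the lowest PanIN library and 17.5 in the highest Healthy one. How many of all transcripts separate in this way was not counted. Among all genes, 9.02% were apart with Tumor above Healthy and 7.4% with PanIN above Healthy. The share of Gbp8-204 in the Gbp8 counts was 38.3%, 50.6% and 59.7% in Healthy nodes, 64.2%, 62.9% and 46.8% in PanIN nodes and 72.9%, 83% and 76.4% in Tumor nodes, with all Tumor libraries above the rest. The coding transcripts of Gbp8 together stood at 22.7, 4.46 and 5.11 CPM in Healthy nodes, 20, 7.85 and 13.6 in PanIN nodes and 15.2, 4.23 and 15.6 in Tumor nodes, and did not separate the stages.

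With counts of protein-coding transcripts alone, Gbp8 had a log2 fold change of 0.16 in Tumor against Healthy (SE 0.69, adjusted p = 0.926 by edgeR). Gbp2 and Gbp5 kept 0.87 and 0.90 in that fit. No 31-base word marks Gbp8-204: 100% of its words also occur in other Gbp8 transcripts and 23% in other genes. Its estimate therefore rests on how the quantifier divided reads along the gene, and whether the RNA ends there was not tested.

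Gbp9 showed something similar in a transcript that can be recognised. Gbp9-203, which retains an intron, was estimated at 20.2, 4.98 and 3.78 CPM in Healthy nodes, 35.2, 35.4 and 30.8 in PanIN nodes and 31.4, 13 and 39.6 in Tumor nodes. All PanIN libraries were above all Healthy ones, and again the transcripts that separate in this way were not counted. Of the words of Gbp9-203, 13.5% occur in no other transcript. The coding transcripts of Gbp9 averaged 58.3 ± 24.5 CPM in Healthy nodes, 72.2 ± 22.2 in PanIN nodes and 55.8 ± 12.3 in Tumor nodes (SD, n = 3 each). For Gbp5, all non-coding forms together averaged 2.63 ± 0.653 CPM in Healthy nodes, 13.4 ± 2.53 in PanIN nodes and 9.66 ± 3.65 in Tumor nodes (SD), with no overlap of Healthy with the other stages. Most of this was Gbp5-202 and Gbp5-203, of whose words 0% and 0.89% occur in no other transcript. PanIN libraries had 12.3, 12 and 8 CPM in Gbp5-202 and 0 in Gbp5-203. Tumor 1 and Tumor 3 had 0 in Gbp5-202 and 5.83 and 10.2 in Gbp5-203. How far the quantifier can tell these forms from coding Gbp5 was not tested. How often the sum of non-coding forms separates stages in other genes was not counted. Coding Gbp5-201 was far more abundant, with means of 40.3 ± 15, 61.8 ± 17 and 72.8 ± 21.6 CPM in that order of stages.

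**Figure D4:**
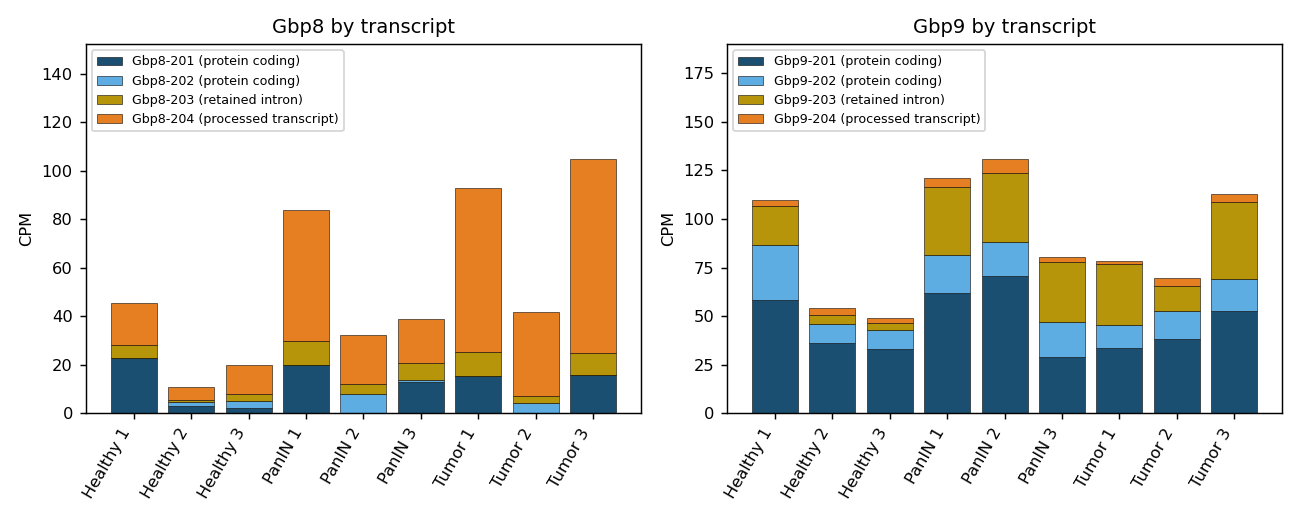
Estimated CPM of each annotated transcript of Gbp8 (left) and Gbp9 (right), stacked per library. The processed transcript Gbp8-204 makes up 38.3% to 83% of Gbp8 and is tallest in Tumor 3 at 80.2 CPM, and the retained-intron transcript Gbp9-203 is lowest in Healthy 3 at 3.78 CPM.

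In other members the annotated type mattered as well. Of the Gbp4 counts, 64.5% to 99.6% per library went to non-coding forms, mostly Gbp4-202, a transcript annotated as a target of nonsense-mediated decay that shares 99.4% of its words with other Gbp4 transcripts. Gbp6 had between 38.1% and 100% in non-coding forms. In Gbp2, Gbp3 and Gbp7 all counts were in coding transcripts. For Gbp3 they moved among near-identical transcripts: Tumor 1 had 13.7 CPM in Gbp3-201, Tumor 3 had 13.1 in Gbp3-203 and Healthy 2 had 8.63 in Gbp3-202. Such splits are estimates, and the counts summed per gene are the firmer values, while TPM sums still depend on the split.

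The other annotated Gbp genes were scarce. Gbp2b stood at 3.63, 8.9 and 1.65 CPM in Healthy nodes, 5.02, 2.14 and 3.35 in PanIN nodes and 2.5, 2.76 and 3.73 in Tumor nodes, with its highest value in Healthy 2, the library with the lowest family sum. Gbp10 was at 0 to 1.57 CPM in Healthy nodes, at 1.24 to 2.67 in PanIN nodes and at 0 to 0.167 in Tumor nodes, so that, as for Gbp7, its 3 PanIN libraries lay above the Tumor ones. Of the 31-base words of Gbp10, 80.8% occur in Gbp6. Gbp11 did not exceed 0.413 CPM.

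Over the 9 libraries Gbp2, Gbp4, Gbp5 and Gbp8 varied together, with Pearson r of their log2 CPM between 0.89 and 0.95 for each pair. Gbp9 joined them less closely, from 0.59 with Gbp2 to 0.81 with Gbp5. So did Gbp3, from 0.61 with Gbp4 to 0.79 with Gbp2, and Gbp3 also had 0.64 with Gbp6 and 0.22 with Gbp7. Gbp7 was weakly related to those 4, with r of 0.01 with Gbp2, 0.06 with Gbp8, 0.13 with Gbp5 and 0.23 with Gbp4. So was Gbp6, with r between 0.14 (Gbp8) and 0.31 (Gbp2), and the closest member to Gbp7 was Gbp6 at 0.71. Gbp7 and Gbp5 are neighbours on chromosome 3 and both carry ISRE-like and GAS-like letters in their promoters. These correlations describe 9 libraries that share stage, depth and maturation differences, and for chromosome 5 genes also reads.

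Of 5 regulators set beside the mean log2 CPM of the 8 members over the 9 libraries, Irf1 had the highest r, 0.89. For Nlrc5, taken from the list of interferon gamma response genes, r was 0.64. It was 0.13 for Stat2, -0.18 for Irf2, -0.30 for Irf9 and -0.44 for Irf8. Irf1, a transcription factor that acts on GBP promoters, stood at 356, 118 and 192 CPM in Healthy nodes, 472, 385 and 355 in PanIN nodes and 556, 337 and 617 in Tumor nodes. Its log2 fold changes were 0.86 in PanIN against Healthy (SE 0.37, adjusted p = 0.459) and 1.18 in Tumor against Healthy (SE 0.38, adjusted p = 0.168).

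Among the 15 interferon receptor and signalling genes 0 were called in each comparison, with medians of 0.32 in PanIN against Healthy, 0.18 in Tumor against Healthy and -0.19 in Tumor against PanIN. Stat2, a transcription factor of the type I response, averaged higher in PanIN, with log2 fold changes of 1.41 against Healthy (SE 0.35, adjusted p = 0.329) and -0.81 in Tumor against PanIN (SE 0.35). It stood at 72.5, 101 and 57.3 CPM in Healthy nodes, 106, 231 and 277 in PanIN nodes and 87.5, 117 and 146 in Tumor nodes. PanIN was above Healthy in every library, as in 7.4% of all genes. Usp18, a brake on the type I receptor, had 0.92 in PanIN against Healthy (SE 0.22, adjusted p = 0.329). Socs1, a feedback inhibitor of interferon signalling, had 0.85 in PanIN against Healthy (SE 0.40, adjusted p = 0.479) and 1.15 in Tumor against Healthy (SE 0.40, adjusted p = 0.177). The receptor genes Ifngr1, Ifngr2, Ifnar1 and Ifnar2 lay between -0.51 and 0.49 in both comparisons with Healthy. Transcripts of the interferons were nearly absent: 5 of the 12 interferon and related cytokine genes listed were at 0 in all libraries, and Ifng, the gene of interferon gamma, did not exceed 0.843 CPM.

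The immunity-related GTPases, which act on the same vacuoles as GBPs, had their highest CPM mean in PanIN and their lowest in Tumor, while the summed GBPs were highest in Tumor in CPM and in PanIN in TPM. The difference between the families was not tested. Of 13 listed, 12 were tested. In PanIN against Healthy 9 of 12 were positive (median 0.73), in Tumor against Healthy 5 (median -0.21), and in Tumor against PanIN 1 (median -0.80), and 0 were called in any. Over all genes 42.5%, 43.5% and 45.8% were positive in these comparisons. At an unadjusted p under 0.05, 5 of 12 were lower in Tumor than in PanIN, beside 2.52% of all genes, and 8 had Tumor libraries below all PanIN libraries, beside 7.26% of all genes. Irgm1, a regulator of the family, stood at 51.4, 107 and 43.8 CPM in Healthy nodes, 77.1, 104 and 152 in PanIN nodes and 42.4, 67.9 and 71 in Tumor nodes. Ifi47 had -0.87 in Tumor against PanIN (SE 0.26, adjusted p = 1) and Igtp -0.72 (SE 0.32, adjusted p = 1). Gbp6, Gbp7 and the scarce Gbp10 had the same order in their CPM means, with PanIN highest and Tumor lowest. The 30 type I interferon response genes outside both GTPase families had medians of 1.36, 0.39 and -0.67 in the same 3 comparisons. Their sums, 646 to 1302 CPM in Healthy nodes, 1387 to 2340 in PanIN nodes and 1129 to 1316 in Tumor nodes, were highest in PanIN. The 21 interferon gamma response genes outside both families had medians of 0.14, 0.32 and 0.14 in these comparisons. Those of the 8 GBPs were 0.60, 0.59 and 0.08. Of the 21, 14 were positive in each comparison and 0 were called. The difference between this list and the GBPs was not tested.

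**Figure D5:**
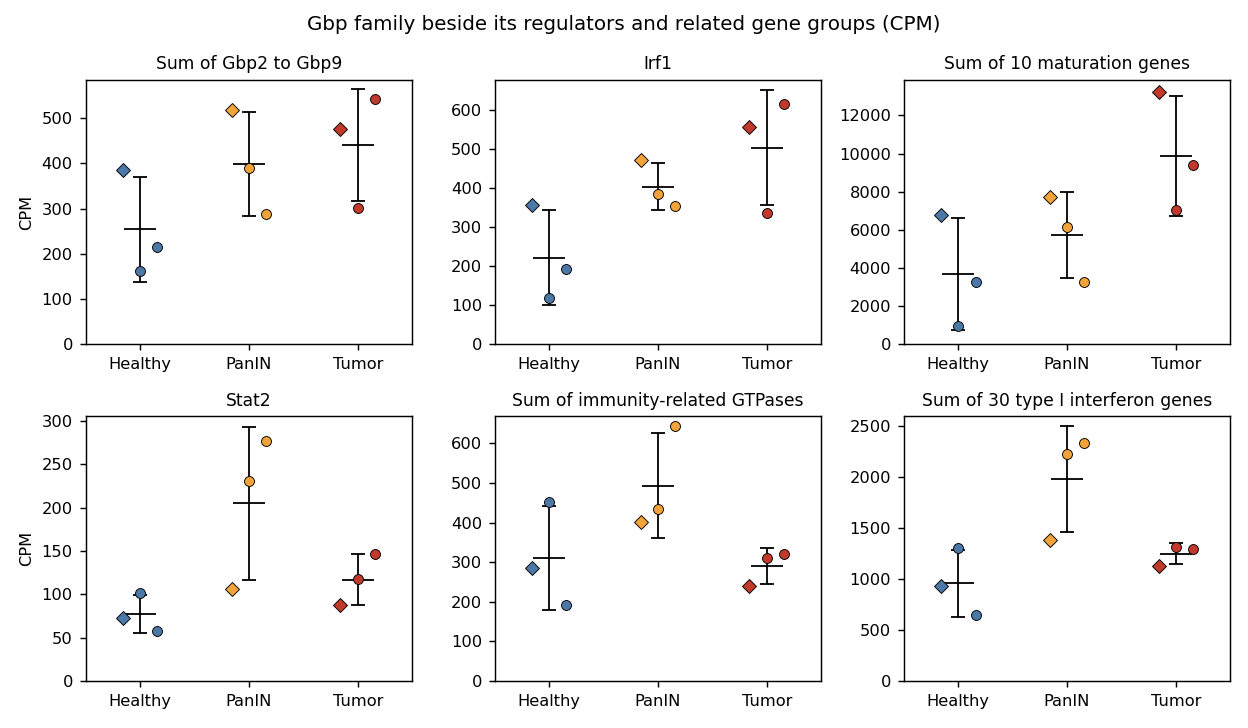
Levels in CPM (vertical axes, from 0) per library by stage of the summed family, Irf1, 10 maturation genes, Stat2, the immunity-related GTPases and 30 type I interferon response genes; bars are means, whiskers SDs of 3 libraries, and diamonds the shared title code. In these CPM values Tumor has the highest mean in the upper row and PanIN in the lower; in TPM the means of the summed family (106 in Tumor, 115 in PanIN) and of Irf1 (138 in Tumor, 146 in PanIN) are highest in PanIN.

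Genes that act after GBPs on inflammasomes were mostly positive: 9 of 10 in PanIN against Healthy (median 0.47) and 8 of 10 in Tumor against Healthy (median 0.35), with 0 called. Over all genes 42.5% and 43.5% were positive in these comparisons. Casp4, which encodes the caspase that senses bacterial lipopolysaccharide, stood at 11.3, 9.63 and 6.93 CPM in Healthy nodes, 20.9, 17.7 and 17.4 in PanIN nodes and 29.7, 21.1 and 27.6 in Tumor nodes. PanIN and Tumor both lay apart from Healthy, where 7.4% of all genes were apart with PanIN higher and 9.02% with Tumor higher. The log2 fold changes of Casp4 were 1.01 in PanIN (SE 0.27, adjusted p = 0.362 by edgeR) and 1.49 in Tumor (SE 0.27, adjusted p = 0.124). Gsdmd, the pore-forming protein cut by that caspase, had 0.96 in PanIN (SE 0.30, adjusted p = 0.457) and 1.06 in Tumor (SE 0.30, adjusted p = 0.168), and Il1b, a cytokine released on inflammasome activation, 0.58 and 1.70. Nlrp3, the sensor tied to Gbp5, had 0.54 (SE 0.46) in PanIN and -0.01 (SE 0.46) in Tumor. Pycard, Il18, Nlrc4 and Mefv of the same list lay between -0.09 and 0.21 in PanIN and between -0.07 and 0.25 in Tumor. The 10 autophagy conjugation genes had medians of -0.12, 0.14 and 0.30 in the 3 comparisons, and the 6 enzymes of prenylation, the lipid attachment, had -0.10, -0.21 and -0.15, with 0 called in either list.

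Genes outside the family were ranked by the likeness of their log2 CPM to the mean of the 8 members, among 12013 protein-coding genes over the 9 libraries. The closest was Nfe2l1 (r = 0.967), a stress-responsive transcription factor. Next came Tnfaip3 (0.956), an inhibitor of NF-kB signalling, then Rnf19a (0.948), a ubiquitin ligase, and Abcg1 (0.944), a cholesterol exporter. Phf21a, Arhgap31, Bmp2k, Lnx2, Mocos and Pfkfb3 completed the 10, with r between 0.934 and 0.943. Nfe2l1 stood at 271, 139 and 173 CPM in Healthy nodes, 288, 238 and 197 in PanIN nodes and 275, 196 and 296 in Tumor nodes. In all 10, as in the family, Healthy 2 was lowest and Healthy 1 highest of the Healthy libraries. The ranking by likeness over the same 9 libraries favours such an order, so it is no separate result. Ccr7, the receptor that guides mature dendritic cells to nodes, had r = 0.86, Fscn1 0.82, and Irf8, which defines the cDC1 lineage, -0.44. Ccr7 stood at 1265, 57.2 and 419 CPM in Healthy nodes, 1518, 970 and 666 in PanIN nodes and 2602, 1097 and 1584 in Tumor nodes, so Healthy 2 had the least of both Ccr7 and the summed GBPs.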

How the data were processed

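RNA of cDC1 was sequenced in 9 libraries. Per the labels' protocols, RNA came from a column micro kit and libraries from a directional kit. Per transcript, the authors deposited an estimated count and a TPM value; the submitters' processing notes name Salmon and mm10, while the file names mention sailfish, so the quantifier is not settled, and neither its version nor its use of strand is given. Deposited estimated counts carry no normalization, while the deposited TPM have the same sum in every library. Both split reads between similar transcripts by a model.

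Of 136288 transcripts, 136176 matched GENCODE M21 by identifier, with at least 99.963% of each library's counts, and were summed to genes and rounded. Tests used edgeR 4.0.16 in R 4.3.3: filterByExpr (minimum count 10, total 15), TMM (factors between 0.83 and 1.19), and a quasi-likelihood fit shared by all 9 libraries (common biological coefficient of variation 56.5%), with Benjamini-Hochberg adjustment over 24133 genes and a threshold of 0.05. SE is the log2 fold change over the root of F. CPM use the TMM factors. An exact permutation test of 3 against 3 libraries reaches 0.1 at best. Groups come from the stage in the labels, which carry no replicate numbers; libraries are numbered in accession order and never paired. The scripts were tested on simulated counts.

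Members and lists were chosen with earlier results of these data known. Named genes are the 8 members, genes of lists of up to 15 genes, the 10 most alike, and Nlrc5 from the longer interferon gamma response list. Cell type lists hold cDC1, maturation, cDC2 and monocyte, plasmacytoid, B, plasma, T and NK, neutrophil and epithelial markers. Alternatives were DESeq2 1.42.0, RLE factors, other filters, limma 3.58.1 (voom, or trend on log2(TPM + 0.1) or log2(TPM + 1)), rebuilding counts from TPM, fewer libraries and a term for the shared title code. Protein-coding transcripts alone, leaving out Healthy 2 and Healthy 3 together and the alternatives of the 3-stage test were chosen after seeing the data. The RefSeq promoter and gene tables and GENCODE transcripts were read with pandas 2.3.3 under Python 3.11.15; matplotlib 3.10.9 drew the figures. Of the lists not described in the results, cDC2 and monocyte markers had a median of -0.65 in Tumor against Healthy and plasmacytoid markers 0.15. Plasma cell markers had 1.91 and epithelial and acinar markers 1.13, with 0 called in these lists. In the epithelial and acinar sum Tumor 1 stood apart. It had 86.1 CPM beside 8.17 and 7.04 in Tumor 2 and Tumor 3 and 7.74 to 11.4 in Healthy. For plasma cells the Tumor libraries had 334, 218 and 129 CPM, against 107, 150 and 88.7 in Healthy. The values of 1 gene of the interferon signalling list are not reported here.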

Additional observations from a re-analysis of the deposited data

How the results depend on the processing

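The calls on the 8 members moved in 3 settings, each time for Gbp8: DESeq2 and the fit with no filter on low counts called 1 member in Tumor against Healthy, and the fit with no filter called 1 in the test over the 3 stages. In every other setting 0 members were called. DESeq2 and the fit with no filter also called far more of all genes than the main fit, as counted below. No paired analysis was possible because the labels carry no replicate numbers and only 1 library per stage shares a title code; the fit with a term for that code called 0 members in each comparison.

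The members' median log2 fold change was 0.33 to 1.12 in PanIN against Healthy with 1 library left out and 0.00 without both Healthy 2 and Healthy 3. In Tumor against Healthy it was 0.39 to 0.92 with 1 library left out and 0.15 without both. In Tumor against PanIN it was -0.10 to 0.29 with 1 left out and -0.36 by limma-trend on log2(TPM + 0.1).

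Signs of single members turned, none of them called. In PanIN against Healthy without both Healthy 2 and Healthy 3 these were Gbp2 (-0.01), Gbp4 (-0.17), Gbp6 (-0.25) and Gbp7 (-0.20), and Gbp6 with counts rebuilt from TPM (-0.03). In Tumor against Healthy Gbp9 was -0.34 without both and -0.02 with protein-coding transcripts alone. In Tumor against PanIN, log2(TPM + 1) gave -0.24 for Gbp3, -0.37 for Gbp4 and -0.16 for Gbp5, log2(TPM + 0.1) gave -0.32, -0.40 and -0.17, rebuilt counts -0.01 for Gbp3 and -0.07 for Gbp4, and voom -0.01 for Gbp3. With 1 library left out Gbp3 ranged from -0.17 to 0.26 and Gbp5 from -0.11 to 0.34. Protein-coding transcripts alone gave -0.13 for Gbp4 and -0.24 for Gbp8. They gave Gbp6 5.90, and -9.16 in PanIN against Healthy, both set by PanIN libraries at 0 coding counts and no measure of size. The cause of these turns was not tested.

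Counts over all genes moved more. PanIN against Healthy had 206 by DESeq2, 123 with no filter, 4 on log2(TPM + 1), 3 on log2(TPM + 0.1), 1 with rebuilt counts, 3 without both Healthy libraries and 0 to 6 with 1 left out. Tumor against Healthy had 1629 by DESeq2, 1041 with no filter, 3 with at least 50 counts in 3 libraries, 1 with rebuilt counts, 0 by voom, 2 with protein-coding transcripts and 2 to 2177 with 1 left out, the highest without Healthy 2. Tumor against PanIN had 37 by DESeq2, 33 with no filter, 1 with at least 50 counts, 0 with rebuilt counts, 0 with the 6 libraries compared, 1 with the title code term, 0 by voom, 0 with protein-coding transcripts and 1 to 7 with 1 left out. Gbp6 and Gbp7 had the fewest counts of the members, with means of 195 and 192 per library.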
